A study of Rattus norvegicus with 172 samples.

Results

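The AMPA and kainate receptor subunits comprise 9 genes, the AMPA receptor subunits Gria1 to Gria4 and the kainate receptor subunits Grik1 to Grik5. They were found by gene symbol among the probe sets of an Affymetrix rat array that was hybridised with RNA of granule cells cut by laser from the dentate gyrus, where they are the main excitatory neurons. All 9 had a probe set, and 7 of them were among the 10761 genes bright enough to be tested. Grik1 and Grik3 were too dim and are described only.

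Ionotropic glutamate receptors of both families are tetramers that open a cation channel when glutamate binds. AMPA receptors carry most of the fast excitatory current in granule cells, and their composition sets conductance, kinetics and calcium entry: edited Gria2 keeps calcium out, while Gria1 brings receptors to the synapse during plasticity. Kainate receptors combine Grik1, Grik2 or Grik3, which form channels alone, with Grik4 or Grik5, which raise agonist affinity but form no channel by themselves. In epilepsy research they are known from recurrent mossy fibre synapses, the contacts that granule cells form on one another after status epilepticus, and from kainic acid, the agonist that serves as a convulsant in this study.

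The study took granule cells from 164 male Sprague-Dawley rats of 7 laboratories, on 172 arrays, in 4 models of epilepsy with 28 groups. Rats weighed 175 to 250 g, and their age is not given in the sources used here. In the pilocarpine model (laboratories A and B), rats received 300 to 350 mg/kg of the cholinergic agonist after 1 mg/kg methylscopolamine, and status epilepticus (SE) was stopped with pentobarbital after 90 min. Controls received methylscopolamine too, followed by saline. In the kainate model, kainic acid was given hourly at 5 mg/kg until SE began, against saline. SE ran its own course of 6 to 8 h in laboratory A, while laboratory B began with 7.5 mg/kg and ended SE after 90 min. Granule cells of these rats, and of rats with self-sustaining status epilepticus (SSSE, 1 laboratory), were taken at day 1, day 3 or day 10. In kindling (laboratories A and B), where repeated electrical stimuli lead to ever stronger seizures, they were taken at stage 2, 4 or 5. How SSSE and kindled rats and their controls were handled is not given in the sources used here. Each group held 6 rats, except that SSSE had 5 rats at day 3, 4 at day 10 and 5 controls. Per rat, at least 10 ng of RNA was gathered from 10 µm sections, so that each rat is 1 replicate. Per array, the median signal ran from 27.99 to 54.17. The number of arrays limits the precision of every value below.

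The labels contradict each other for 2 rats. SSSE day 1 rat 3 is called a day 1 rat by its title and a control by other labels, and it was kept at day 1, where the stated group sizes put it. Kindling laboratory A stage 2 rat 4 carries kainate in its title and model label but a kindling laboratory and a kindling stage, and it was kept in kindling. In addition, 6 rats correlated clearly less with their own group than the group's other rats did, and counts without them are given below where they differ.

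The capture was checked against marker genes. Prox1, Calb1, C1ql3, Bcl11b, Neurod1, Rfx3 and Sema5a, which mark granule cells, lay above the median of the array in all 164 rats. Genes listed as markers of other cell types gave signal as well, and which cells it came from was not measured. In all 164 rats 3 of 8 measured interneuron markers (Gad1, Npy and Cck) were above that median, with Gad2 above it in 3 rats and Pvalb in 97. So were 4 of 8 markers of mossy cells and CA3 (Ap2s1, Bok, Cpne4 and Nptx1), with Drd2 in 3 rats and Calcrl in 0. Of the glial lists, 6 of 8 astrocyte and 4 of 6 oligodendrocyte markers were above it in all rats, Mbp, Gja1 and Gfap among them. The microglial list had C1qa in 163 rats, Csf1r in 160 and Itgam in 0, and the endothelial list had Cldn5 in 155 and Pecam1 in 0. Of 5 measured markers of oligodendrocyte precursors, Olig1 was above it in 155 rats, Cspg4 and Olig2 in 0.

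Levels are given as log2(signal + 16), and every change as a difference on that scale between a time or stage and its laboratory's own controls, each laboratory counting equally, with its standard error (SE of the fit) and a p-value from limma adjusted by Benjamini-Hochberg over all 10761 genes. A gene rose or fell where the adjusted p was under 0.05. The 3 times of a laboratory share its controls. Because all arrays were scaled to a common mean signal, fewer cells of a type and less RNA per cell cannot be told apart.

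At day 1 after pilocarpine, Gria1, Gria2, Gria4 and Grik2 fell and Grik4 rose. After kainate, Gria1, Gria2, Gria4 and Grik2 fell as well and Gria3 rose. Thus 5 of 7 tested subunits changed in each chemoconvulsant model, where 32.1% of all genes changed at day 1 after pilocarpine and 41.6% at day 1 after kainate. In SSSE only Gria3 rose at day 1, 1 of 7 against 12.5% of all genes. The median change of the 7 subunits was -0.34 after pilocarpine and -0.30 after kainate, beside medians over all genes of 0.0034 and 0.016. At day 3 and day 10, 0 of 7 passed in each SE model. At those times 11.7% and 8.93% of all genes changed after pilocarpine, 7.96% and 6.28% after kainate, and 3.14% and 0.344% after SSSE. The number of subunits with an unadjusted p under 0.05 in limma was 2 and 2 after pilocarpine, 1 and 1 after kainate, and 3 and 1 after SSSE. Without the 6 rats that stood apart, 1 of 7 passed at day 3 after pilocarpine (Grik2) and 1 of 7 at day 10 after kainate (Gria3). The pilocarpine rats left out were all of day 10. The day 3 difference of Grik2 stayed the same, while the estimate of spread shared by the groups of the model changed. In SSSE a single rat decided further calls: without day 1 rat 6, Grik2 fell at day 1 as well, and without day 3 rat 2, Gria3 rose at day 3.

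**Figure D1:**
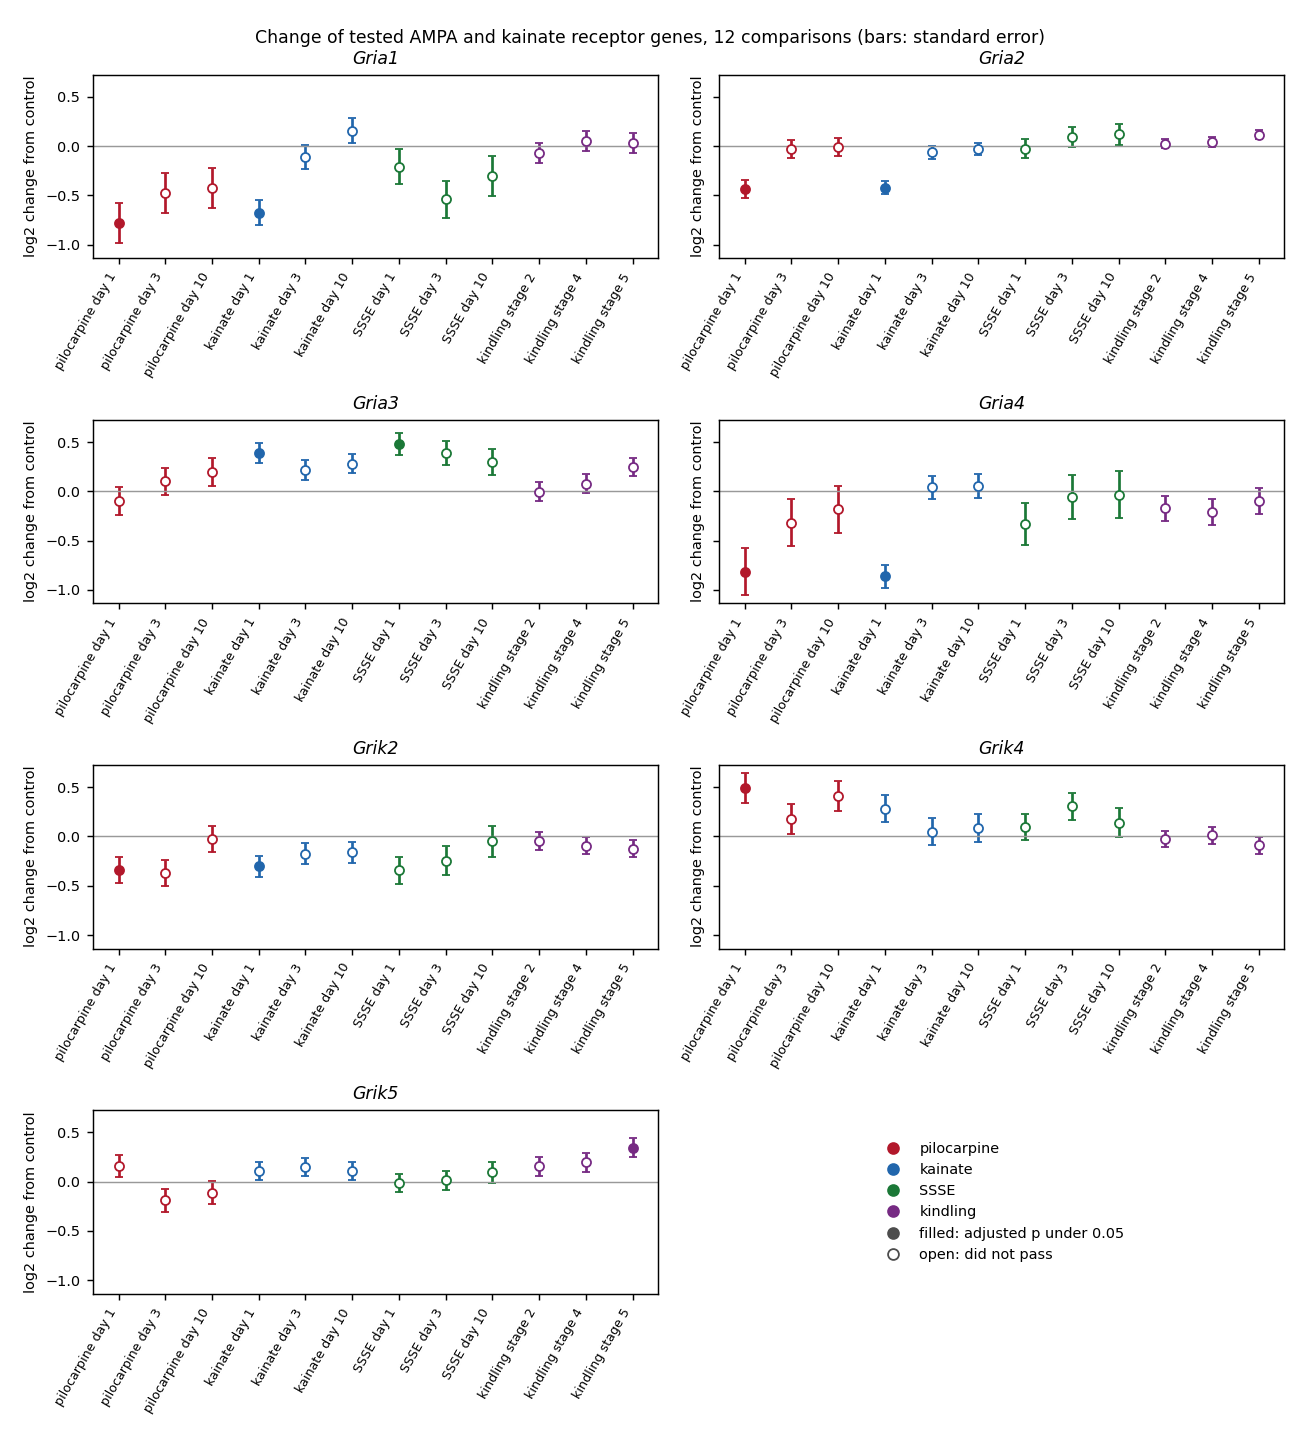
Change from same-laboratory controls on the log2(signal + 16) scale (vertical axis) for the 7 tested subunit genes, 1 panel each, over 12 comparisons (horizontal axis, models in colour); bars are standard errors and filled points have an adjusted p under 0.05. Gria1, Gria2 and Gria4 lie lowest at day 1 after pilocarpine and kainate, while Gria3 lies above 0 after kainate and SSSE.

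Gria1, the AMPA subunit that carries receptors into potentiated synapses, lies at chr10:41710540-42030105 (GRCr8) and was measured by 1 probe set. At day 1 after pilocarpine its lowest, median and highest levels were 8.15, 9.05 and 9.96 in laboratory A, against 9.07, 9.69 and 10.32 in the controls. In laboratory B they were 8.74, 9.26 and 9.76, against 9.93, 10.10 and 10.17 in the controls. The groups overlapped in laboratory A and lay fully apart in laboratory B, and 9 of 12 rats were below the lowest control of their laboratory. Gria1 fell by 0.78 ± 0.20 (SE, 12 rats against 12 controls, limma adjusted p = 0.0027), which is 0.584 times the control level on the signal + 16 scale. Its change was -0.68 in laboratory A and -0.87 in laboratory B. Where laboratory A was fitted alone the adjusted p was 0.16.

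At day 1 after kainate Gria1 had 8.68, 8.92 and 9.09 in laboratory A, against 9.24, 9.49 and 9.60 in the controls. Laboratory B had 8.13, 8.71 and 9.48, against 8.98, 9.51 and 10.31 in the controls. Here laboratory A was the one without overlap, and 10 of 12 rats lay below their controls. Gria1 fell by 0.68 ± 0.13 (SE, 12 rats against 12, limma adjusted p = 2.2e-05). After SSSE the day 1 levels were 9.28, 10.01 and 10.21, against 10.01, 10.09, 10.19, 10.23 and 10.24 in the controls, a change of -0.21 ± 0.18 that did not pass (limma adjusted p = 0.46). The 5 day 3 rats had 8.86, 9.69, 9.76, 9.86 and 9.90 and all lay below the lowest SSSE control. That difference of -0.54 ± 0.19 did not pass either (limma adjusted p = 0.12).

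Gria2, the subunit whose edited form makes AMPA receptors impermeable to calcium, lies at chr2:168247490-168367616. At day 1 after pilocarpine the lowest, median and highest levels were 11.25, 11.32 and 11.79 in laboratory A, against 11.74, 11.88 and 12.38 in the controls. Laboratory B had 10.90, 11.23 and 11.62, against 11.32, 11.57 and 12.06 in the controls. In both laboratories the upper day 1 rats reached into the control range, and 8 of 12 lay below it. The fall was 0.44 ± 0.09 (SE, 12 rats against 12, limma adjusted p = 0.00021). In laboratory B fitted alone the adjusted p was 0.12, with a change of -0.34.

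After kainate the day 1 levels of Gria2 were 10.68, 10.84 and 11.05 in laboratory A, against 11.05, 11.15 and 11.29 in the controls. Laboratory B gave 10.81, 11.18 and 11.52, against 11.60, 11.68 and 11.78 in the controls. Only the highest day 1 rat of laboratory A touched the control range, so that 11 of 12 rats lay below it. Gria2 fell by 0.42 ± 0.06 (SE, 12 rats against 12, limma adjusted p = 6.1e-07). At day 1 after SSSE the change did not pass and was -0.02 with a 95% interval from -0.23 to 0.18. Another probe set of Gria2 fell by 0.52 at day 1 after pilocarpine (limma adjusted p = 5.1e-05) and by 0.38 after kainate (adjusted p = 1.1e-05). It followed the brighter one over the 164 rats with r = 0.779.

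Gria4, a subunit of fast-gating AMPA receptors best known in the hippocampus from parvalbumin interneurons, lies at chr8:9845421-10320021. Day 1 levels after pilocarpine were 6.84, 7.48 and 7.87 in laboratory A, against 7.79, 8.33 and 8.69 in the controls. They were 6.75, 7.25 and 8.55 in laboratory B, against 7.45, 8.05 and 9.16 in the controls. In laboratory A all but the highest day 1 rat lay under the controls, and over both laboratories 9 of 12 did. Gria4 fell by 0.81 ± 0.24 (SE, 12 rats against 12, limma adjusted p = 0.0068), to 0.569 times the control level on the signal + 16 scale. Laboratory B fitted alone gave -0.69 with an adjusted p of 0.24.

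Day 1 after kainate brought the lowest Gria4 level of all 28 groups, a mean of 7.17 ± 0.34 (SD, n = 6) in laboratory A. There the lowest, median and highest rats had 6.67, 7.32 and 7.46, against 7.59, 8.26 and 8.41 in the controls, without overlap. Laboratory B had 7.04, 7.39 and 7.56, against 7.53, 8.13 and 8.55 in the controls, with 1 day 1 rat inside the control range. The fall of 0.86 ± 0.12 (SE, 12 rats against 12, limma adjusted p = 7.3e-08) was present in both laboratories, at -0.95 in A and -0.78 in B. After SSSE the change was -0.33 ± 0.21 and did not pass (limma adjusted p = 0.31). A further probe set of Gria4 fell by 0.81 after pilocarpine (limma adjusted p = 0.00075) and by 0.55 after kainate (adjusted p = 2.8e-06), while the third was above the array median in 0 of 164 rats.

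Beside these falls, 8 of 9 tested granule cell markers fell at day 1 after pilocarpine and 8 of 9 after kainate, with median changes of -0.74 and -0.74. Of all genes, 32.1% changed at day 1 after pilocarpine and 41.6% after kainate. The summed signal of the 9 markers was 8986 to 12503 at day 1 after pilocarpine in laboratory A, against 13546 to 20062 in the controls, and 7269 to 12613 in laboratory B, against 14205 to 19191. After kainate it was 7094 to 8236 in laboratory A, against 11376 to 14005 in the controls, and 8857 to 10671 in laboratory B, against 13969 to 17160. Thus the sums did not overlap in any of the 4 laboratories.

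Some genes listed as markers of other cell types changed as well. Their counts are to be read beside the shares of all genes that changed at day 1, 32.1% after pilocarpine and 41.6% after kainate. The summed signals of these lists weigh the brightest genes most. These were Gad1 among interneuron markers (mean level 11.17) and Nptx1 among those of mossy cells and CA3 (12.12). Of 7 tested interneuron markers, 1 rose and 1 fell at day 1 in each of these models. The summed signal of the 8 measured interneuron markers was 4637 to 9820 at day 1 in kainate laboratory B, against 2471 to 4220 in the controls, without overlap. It overlapped in the other laboratories, with 2744 to 5147 in kainate laboratory A, against 2256 to 3160 in the controls, 3330 to 8599 in pilocarpine laboratory A, against 3428 to 7298, and 2996 to 8942 in pilocarpine laboratory B, against 1109 to 3587. Each of these 4 laboratories had the higher median at day 1. Of 6 tested markers of mossy cells and CA3, 2 rose and 1 fell after pilocarpine and 3 rose and 3 fell after kainate, where the sum was 4081 to 5446 in laboratory A, against 4190 to 4759 in the controls, and 4767 to 6862 in laboratory B, against 6397 to 7547. Of 7 astrocyte markers 4 fell and 1 rose in either model. Only in pilocarpine laboratory A was their sum without overlap, at 1768 to 4668, against 4764 to 10506 in the controls. It was 1720 to 6757 in pilocarpine laboratory B, against 3484 to 5211. Kainate laboratory B had 3206 to 4618, against 4309 to 5804. Kainate laboratory A had 3830 to 5866, against 3763 to 5817, with the higher median at day 1 (4895 against 4572). Of 8 microglial markers 3 rose and 1 fell after pilocarpine and 4 rose and 1 fell after kainate, and of 5 endothelial markers 2 rose after pilocarpine and 0 after kainate. None of the 6 oligodendrocyte and 3 precursor markers tested passed in limma at day 1 in these models. The median array signal at day 1 after pilocarpine was 33.5 to 39.2 in laboratory A, against 39.4 to 48.7 in the controls, but 32.7 to 44.1 in laboratory B, against 31.3 to 38.3. For kainate laboratory A the log2 ratio of 3′ to 5′ Gapdh control signal spanned 0.883 to 1.26 at day 1, against 1.19 to 2.12 in the controls. The part of cell make-up, signal and RNA quality in the falls was not tested.

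**Figure D2:**
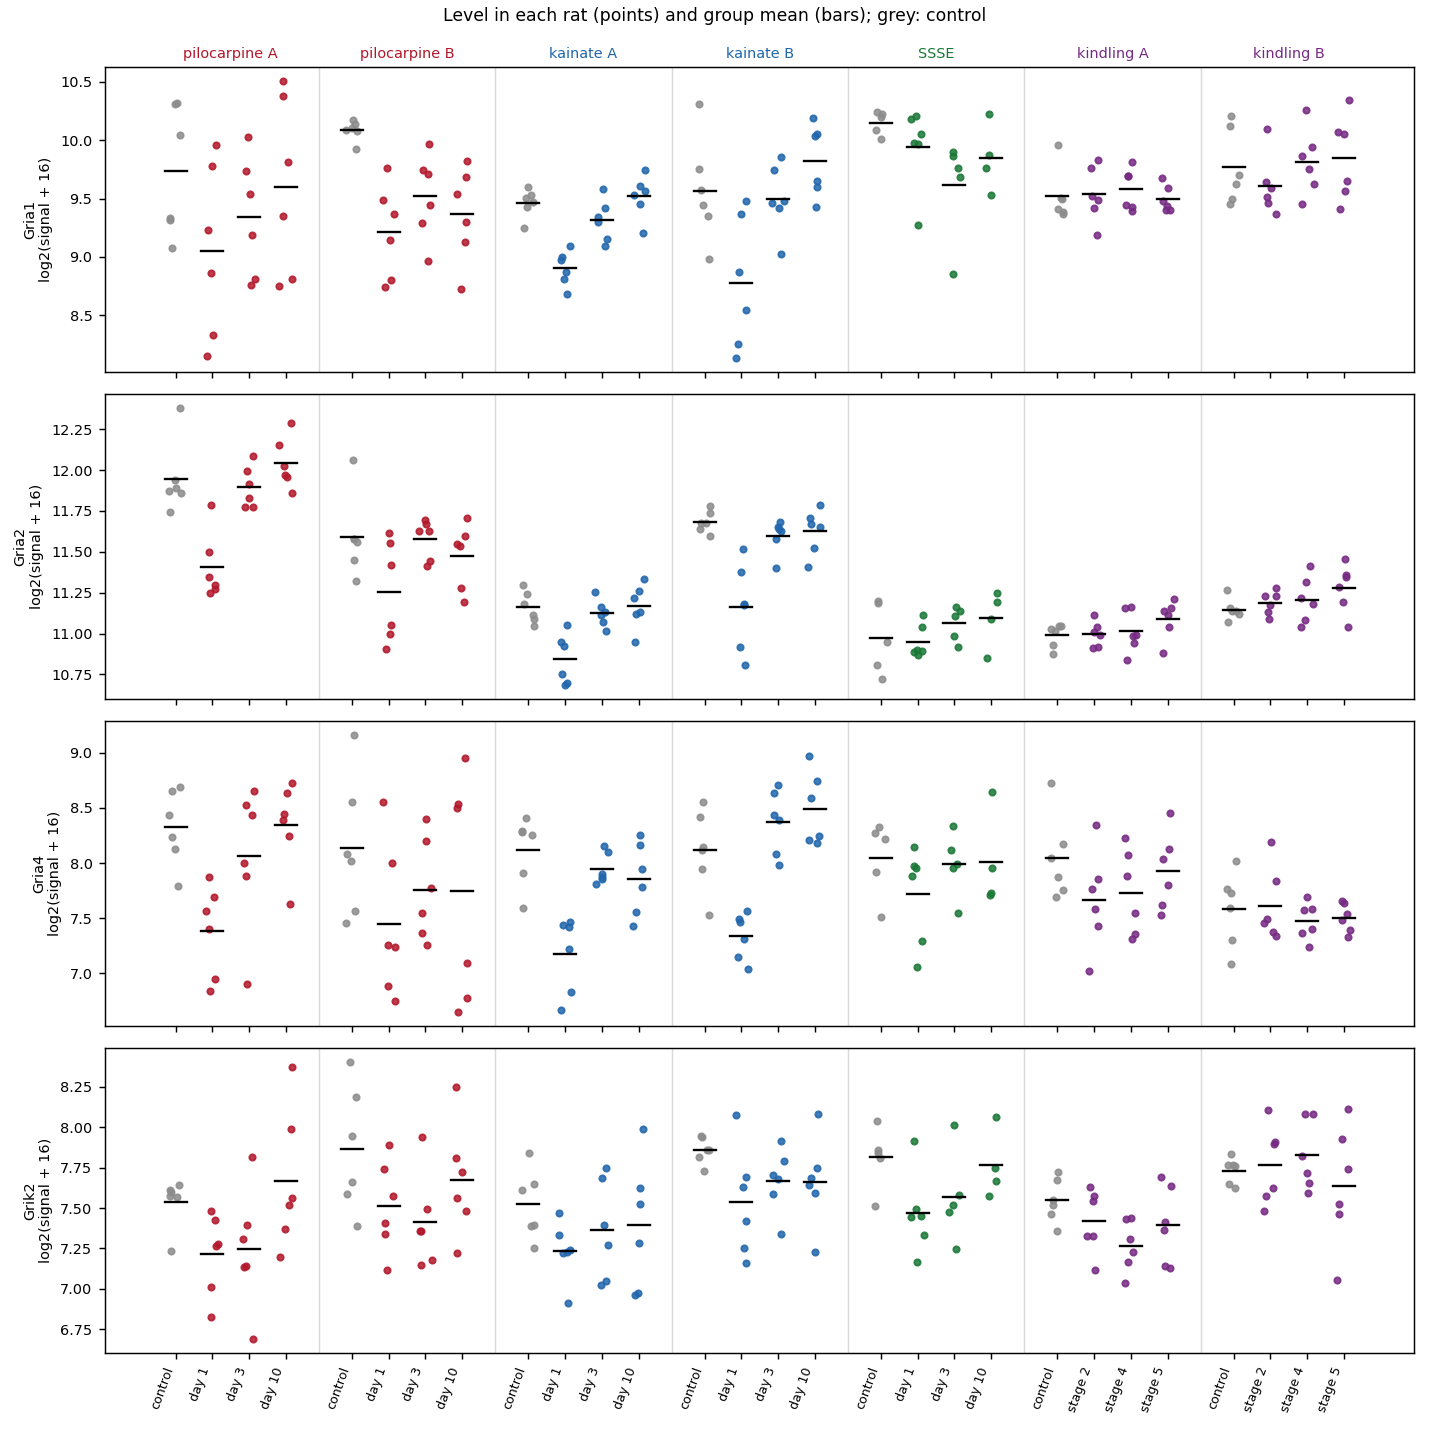
Level as log2(signal + 16) (vertical axis) of Gria1, Gria2, Gria4 and Grik2 in each of the 164 rats (points) with the group mean (bar), over the 28 groups (horizontal axis), controls in grey at the left of each laboratory. Day 1 points of the pilocarpine and kainate laboratories sit mostly under their controls, with 11 of 12 kainate rats under the control range for Gria2 and for Gria4.

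Gria3, the X-linked AMPA subunit at chrX:125103975-125369690, went the other way in 2 of the SE models. After SSSE the day 1 levels were 10.65, 10.82 and 10.86 (lowest, median and highest of 6), against 9.99, 10.25, 10.33, 10.49 and 10.51 in the controls. All 6 day 1 rats lay above every control. Gria3 rose by 0.48 ± 0.11 (SE, 6 rats against 5, limma adjusted p = 0.012), or 1.39 times on the signal + 16 scale. It still passed with rat 3 of the contradictory labels left out, but the call was lost with the dimmer of the 2 Gria3 probe sets, which gave 0.36 (adjusted p = 0.066). In the same rats 4 of 9 granule cell markers fell, with a summed signal of 8856 to 11811 at day 1, against 11295 to 14320 in the controls, 1 of 7 interneuron markers rose and 1 fell, and 3 of 7 astrocyte markers fell and 1 rose. Of 6 mossy cell and CA3 markers 1 rose and 1 fell, and 1 of 8 microglial markers fell. Of all genes 12.5% changed. None of the 6 oligodendrocyte and 3 precursor markers tested passed in limma, with median changes of -0.92 and -0.50. The summed oligodendrocyte signal was 754 to 1587 at day 1, against 1122 to 7294 in the controls. The part of all these markers in the result was not tested.

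After kainate Gria3 had 10.41, 10.68 and 10.94 at day 1 in laboratory A, against 10.31, 10.43 and 10.75 in the controls. In laboratory B it had 10.06, 10.28 and 10.65, against 9.53, 9.75 and 9.86 in the controls. The groups of laboratory B did not overlap and those of laboratory A did. The rise was 0.39 ± 0.10 (SE, 12 rats against 12, limma adjusted p = 0.0013), made of 0.19 in laboratory A and 0.59 in laboratory B, and laboratory A fitted alone did not pass (adjusted p = 0.24). The laboratories' changes differed by -0.40 (A minus B, 95% interval from -0.80 to -0.0061), which did not pass over all genes (limma adjusted p = 0.58).

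After pilocarpine Gria3 did not pass. Its levels at day 1 were 9.28, 9.90 and 10.39 in laboratory A, against 9.41, 10.00 and 10.62 in the controls, and 8.91, 9.63 and 9.98 in laboratory B, against 9.53, 9.59 and 10.05. The groups overlapped throughout, and the change was -0.10 ± 0.14 (SE, limma adjusted p = 0.63). For Gria3, pilocarpine against kainate, day 1, the pilocarpine change minus the kainate change was -0.49 ± 0.15 (limma adjusted p = 0.052). It missed the threshold here and passed in 6 alternative settings, with adjusted p from 0.027 to 0.0495. The other 6 subunits differed by -0.10 to 0.21 between these models, and 0 of 7 passed, where 3.63% of all genes did. The dimmer Gria3 probe set rose by 0.33 at day 1 after kainate (limma adjusted p = 0.041).

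At later times Gria3 did not pass, and its probe sets differed. By the brighter one it was 0.39 ± 0.12 above control at day 3 after SSSE (SE, limma adjusted p = 0.077, 4 of 5 rats above every control) and 0.30 ± 0.13 at day 10 (adjusted p = 0.45). By the dimmer one it was 0.09 above at day 3 and -0.09 at day 10 (adjusted p = 0.76 and 0.90), and day 10 against day 1 was -0.45 (adjusted p = 0.053), so the later values after SSSE rest on 1 probe set. At day 10 after kainate the brighter one was 0.28 ± 0.10 above (adjusted p = 0.077), with 8 of 12 rats over their control range, and the dimmer one 0.18 above (adjusted p = 0.48). Left without the 6 rats that stood apart, the difference by the brighter one was 0.34 (adjusted p = 0.020).

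Grik2, the main channel-forming kainate receptor subunit of granule cells and their mossy fibres, lies at chr20:53717564-54415283. At day 1 after pilocarpine it had 6.83, 7.27 and 7.48 in laboratory A, against 7.23, 7.58 and 7.64 in the controls, and 7.12, 7.49 and 7.89 in laboratory B, against 7.39, 7.80 and 8.40. Most day 1 rats stayed inside the control range, and 4 of 12 were below it. Grik2 fell by 0.34 ± 0.13 (SE, 12 rats against 12, limma adjusted p = 0.046). This call was lost with quantile normalization (adjusted p = 0.075), without the filter on dim probe sets (0.057) and with the repeat arrays alone (0.060). The change was -0.32 in laboratory A and -0.35 in laboratory B. Neither laboratory passed by itself in the fit of the model (limma adjusted p = 0.22 and 0.21).

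After kainate Grik2 had 6.91, 7.24 and 7.47 at day 1 in laboratory A, against 7.25, 7.50 and 7.84 in the controls. Laboratory B had 7.16, 7.52 and 8.07, against 7.73, 7.86 and 7.95. In these laboratories 9 of 12 rats were below the control range and 1 was above it. The fall was 0.30 ± 0.11 (SE, limma adjusted p = 0.020), with -0.29 in laboratory A and -0.32 in laboratory B, neither of which passed when fitted alone. After SSSE Grik2 was 7.17, 7.45 and 7.92 at day 1, against 7.51, 7.81, 7.84, 7.86 and 8.04 in the controls. There 5 of 6 rats lay below every control, and the difference of -0.35 ± 0.14 did not pass (limma adjusted p = 0.10).

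Promoter windows from RefSeq (GRCr8, 250 bases before to 50 after a gene's start) were at hand for 6 of the 9 genes, namely Gria4 and the 5 kainate receptor subunits. Those of Gria4 and Grik2 are shown because both genes fell at day 1 in the chemoconvulsant models. The Gria4 window is chr8:10319832-10320131 on the minus strand and the Grik2 window is chr20:54415234-54415533 on the minus strand. Capitals mark a match to one of 6 searched motifs.
Gria4: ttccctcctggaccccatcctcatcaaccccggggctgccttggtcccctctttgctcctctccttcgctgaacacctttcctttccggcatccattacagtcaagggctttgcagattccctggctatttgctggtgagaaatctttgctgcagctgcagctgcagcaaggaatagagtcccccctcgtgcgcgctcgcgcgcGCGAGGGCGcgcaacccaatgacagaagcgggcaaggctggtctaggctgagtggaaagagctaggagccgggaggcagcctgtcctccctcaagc
Grik2: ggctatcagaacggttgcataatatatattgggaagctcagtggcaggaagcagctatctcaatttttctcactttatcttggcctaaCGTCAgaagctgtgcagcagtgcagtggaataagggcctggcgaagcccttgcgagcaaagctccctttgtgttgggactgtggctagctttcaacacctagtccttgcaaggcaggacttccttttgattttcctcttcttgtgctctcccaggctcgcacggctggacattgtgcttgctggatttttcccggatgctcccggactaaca

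Both strands were searched for CRE (TGACGTCA), its shorter core (TGACG, read as CGTCA on the other strand, as in the Grik2 window), AP-1 (TGANTCA), the GC box (GGGCGG), Egr (GCGNGGGCG) and the TATA box (TATAAA). The CRE core is contained in CRE, and a GC box can overlap an Egr match. Gria4 held 1 Egr match, beginning at -46 from the start, a motif found in 4.98% of 33469 rat promoters. Grik2 held 1 CRE core at -162, found in 21.2% of promoters. Grik5 had 2 GC boxes and Grik3 had 6, a motif of 33.1% of promoters, while Grik1 and Grik4 had no match in these windows. A match is a description of letters and was not tested against the arrays. The Gria4, Grik1, Grik4 and Grik5 windows lie at a start inside the gene's outermost annotated end.

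Grik4, a high-affinity kainate receptor subunit best known from CA3, lies at chr8:51802045-52228751 and rose at day 1 after pilocarpine. Levels were 6.70, 7.30 and 7.87 at day 1 in laboratory A, against 6.13, 6.55 and 7.09 in the controls. Laboratory B had 6.73, 7.07 and 7.80, against 6.40, 6.82 and 7.19. The ranges overlapped in both laboratories, with 6 of 12 rats above their controls. Grik4 rose by 0.49 ± 0.15 (SE, 12 rats against 12, limma adjusted p = 0.011), with 0.65 in laboratory A and 0.32 in laboratory B, and B fitted alone did not pass (adjusted p = 0.26). In laboratory A the 3 lowest controls had the same level to 2 decimals, 6.13.

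For kainate the Grik4 change at day 1 was 0.28 ± 0.14 and did not pass (limma adjusted p = 0.099), nor did 0.10 ± 0.13 after SSSE (adjusted p = 0.65). At day 10 after pilocarpine Grik4 was 0.41 ± 0.15 above control (SE, limma adjusted p = 0.076) with 6 of 12 rats above their control range, and it passed under quantile normalization at 0.50 (adjusted p = 0.044). Of 6 tested markers of mossy cells and CA3, 2 rose and 1 fell at day 1 after pilocarpine, where 32.1% of all genes changed. The summed signal of all 8 listed markers was 5737 to 9182 at day 1 in laboratory A, against 5441 to 9356 in the controls, and 4958 to 7144 in laboratory B, against 6551 to 9327, and its part in the Grik4 change was not tested.

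Grik5, the other high-affinity subunit, lies at chr1:89733736-89795769 and was the only subunit to pass in kindling. At stage 5 it had 7.47, 7.84 and 8.03 in laboratory A, against 6.74, 7.55 and 7.66 in the controls, and 7.89, 7.96 and 8.39 in laboratory B, against 7.35, 7.72 and 8.36. In laboratory A all but the lowest stage 5 rat lay above the controls, while in laboratory B the highest control reached almost to the highest stage 5 rat. The rise was 0.34 ± 0.10 (SE, 12 rats against 12, limma adjusted p = 0.025), or 1.27 times on the signal + 16 scale, and 6 of 12 rats exceeded their controls. It was 0.39 in laboratory A and 0.30 in laboratory B, and neither passed when fitted alone. Beside it 2 of 9 granule cell markers fell, while 2 of 6 mossy cell and CA3 markers and 1 of 7 astrocyte markers rose. Their part was not tested. Thus 1 of 7 subunits changed at stage 5, where 7.1% of all genes did. Stages 2 and 4 had 0 of 7 and 0% of all genes past the threshold. In limma 0 of 7 subunits had an unadjusted p under 0.05 at these 2 stages, against 3 of 7 at stage 5. The stage 2 and stage 4 differences of Grik5 were 0.16 ± 0.10 and 0.20 ± 0.10. Laboratory A gave 0.32 and 0.35 at these stages, and laboratory B -0.0045 and 0.040. At stage 4, too, 6 of 12 rats exceeded their controls, and laboratory A was without overlap. Stage 5 was not tested against the earlier stages.

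Also at stage 5, Gria3 was 0.25 ± 0.09 above control with 9 of 12 rats over their control range (SE, limma adjusted p = 0.099). Gria2 was 0.12 ± 0.05 above with 8 of 12 rats over it (adjusted p = 0.13). Neither passed. The probe sets of Gria4 differed in sign at stage 5, with -0.10 (adjusted p = 0.74) by the brighter one and 0.31 (adjusted p = 0.086) by the further one. After SE the Grik5 differences ran from -0.19 at day 3 after pilocarpine to 0.16 at day 1 after pilocarpine, and none passed.

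**Figure D3:**
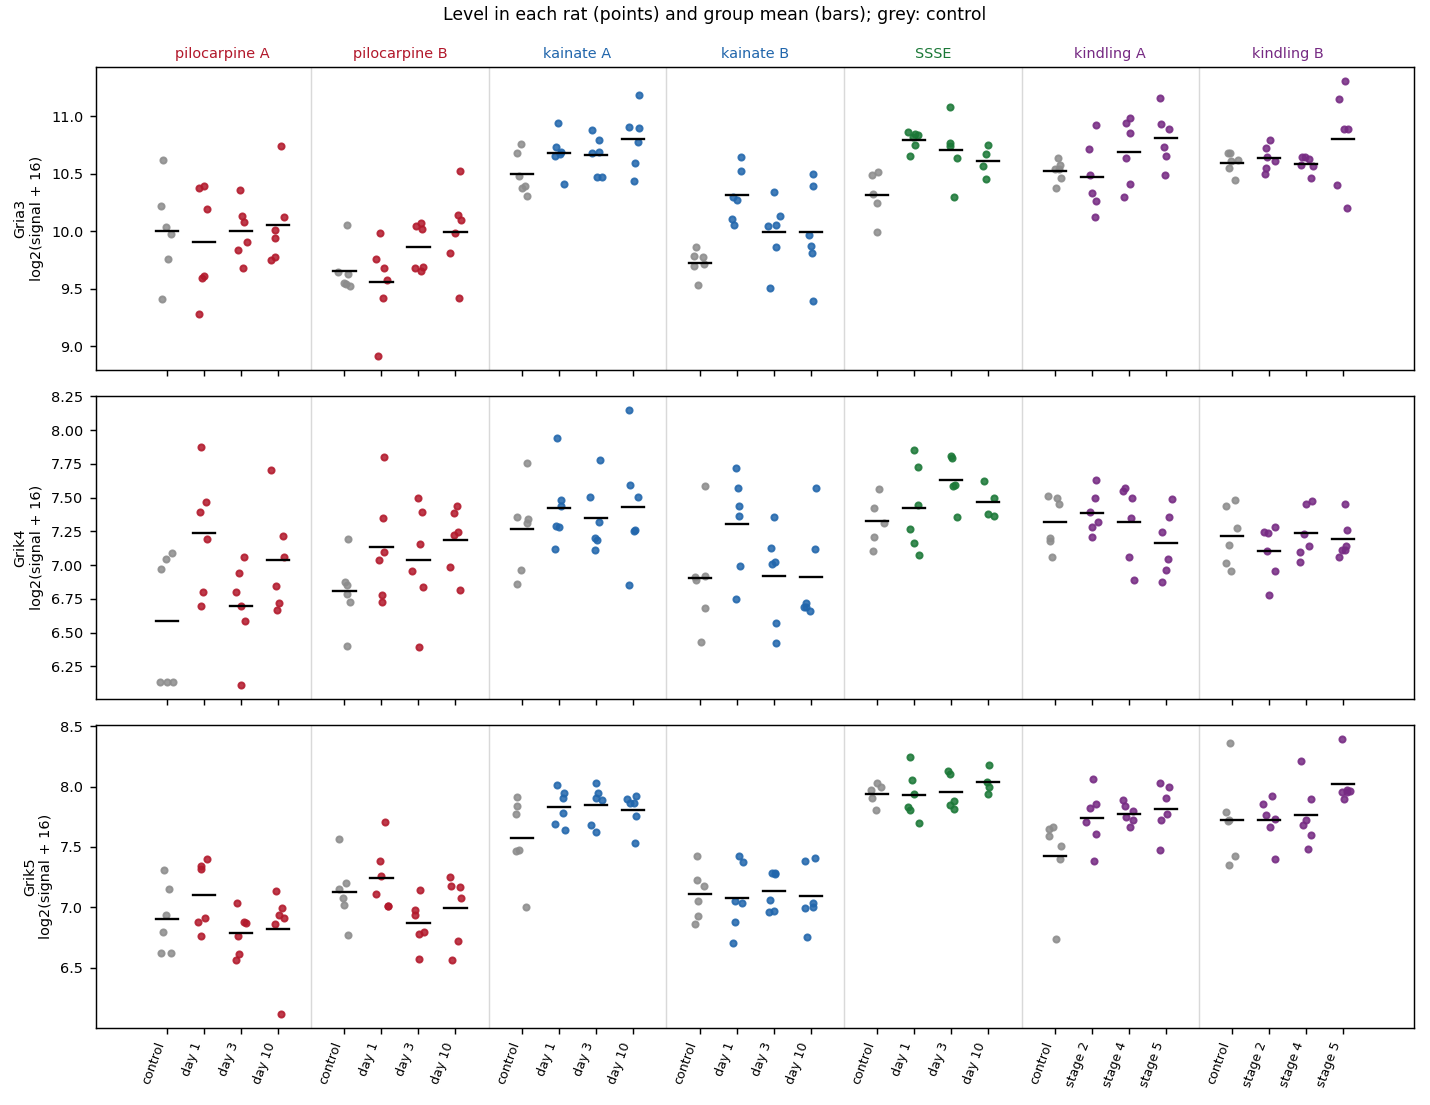
Level as log2(signal + 16) (vertical axis) of Gria3, Grik4 and Grik5 in each of the 164 rats (points) with the group mean (bar), over the 28 groups (horizontal axis), controls in grey at the left of each laboratory. Gria3 points at day 1 after SSSE and in kainate laboratory B lie wholly above their controls; the Grik4 and Grik5 groups overlap with theirs except for Grik5 at stage 4 in kindling laboratory A.

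Grik1 (chr11:40655974-41056966) and Grik3 (chr5:143052442-143268873), both channel-forming kainate receptor subunits, stayed near the bottom of the signal range. The Grik1 probe set was above its array's median in 0 of 164 rats, with levels from 4.05 to 5.61. The Grik3 probe set was above it in 3 of 164, with levels from 4.04 to 6.68. Their mean differences from control ran from -0.34 to 0.17 over the 12 comparisons and were not tested.

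Day 10 was also set against day 1. After kainate 3 of 7 subunits were higher at day 10 than at day 1, where 33% of all genes differed between these days. Gria4 rose by 0.92 ± 0.12 (SE, limma adjusted p = 4.2e-08), Gria1 by 0.83 ± 0.13 (adjusted p = 9.8e-07) and Gria2 by 0.39 ± 0.06 (adjusted p = 3.8e-06). In laboratory B the lowest, median and highest Gria4 levels were 7.04, 7.39 and 7.56 at day 1, 7.98, 8.41 and 8.71 at day 3, and 8.18, 8.42 and 8.97 at day 10, so that day 1 stood apart from both later days. At day 10 the differences from control were 0.16 for Gria1 (95% interval from -0.10 to 0.41), -0.03 for Gria2 (from -0.16 to 0.10) and 0.05 for Gria4 (from -0.19 to 0.29). The further Gria4 probe set was above control at day 10 after kainate, by 0.31 (limma adjusted p = 0.028).

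After pilocarpine 1 of 7 subunits was higher at day 10 than at day 1, where 15.9% of all genes differed. The count was 2 with the mean of all probe sets, with a rat number block or without the 6 rats that stood apart, and 5 with all 28 groups fitted in one model. In the main analysis it was Gria2, by 0.43 ± 0.09 (SE, limma adjusted p = 0.0015). By its brighter probe set Gria4 was 0.63 ± 0.24 higher and did not pass (adjusted p = 0.061). Its further probe set was 0.83 ± 0.19 higher and did pass (limma adjusted p = 0.0025). Gria1 was 0.35 ± 0.20 higher and did not pass (adjusted p = 0.23). Gria1 was still 0.42 ± 0.20 under control at day 10 (adjusted p = 0.19). The rats of laboratory B had 8.73, 9.42 and 9.82 at day 10, against 9.93, 10.10 and 10.17 in the controls, without overlap. Those of laboratory A had 8.75, 9.58 and 10.51, against 9.07, 9.69 and 10.32, a range wider than that of the controls on both sides. Fitted alone, laboratory B gave -0.72 for Gria1 at day 10 (limma adjusted p = 0.029). After SSSE 0 of 7 subunits differed between day 10 and day 1 (5.85% of all genes), and 0 of 7 had an unadjusted p under 0.05 in limma.

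The laboratories of a model were compared over the 3 times with a moderated F-test. It called 0 of 7 subunits in the pilocarpine, kainate and kindling models, beside 0.269%, 0.00929% and 0% of all genes. In limma 0 of 7 had an unadjusted p under 0.05 in each model. The largest difference was that of Gria4 at day 10 after kainate, -0.64 ± 0.24 (A minus B), where laboratory A was 0.27 under and laboratory B 0.37 above control.

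Over the 28 groups the mean level of each subunit varied by laboratory as well as by treatment. Gria1 was lowest at day 1 in kainate laboratory B (8.78 ± 0.57, SD, n = 6) and highest in SSSE controls (10.15 ± 0.10, n = 5). Gria2 ran from 10.84 ± 0.15 at day 1 in kainate laboratory A to 12.04 ± 0.15 at day 10 in pilocarpine laboratory A, and Gria3 from 9.56 ± 0.37 at day 1 in pilocarpine laboratory B to 10.81 ± 0.24 at stage 5 in kindling laboratory A (n = 6 each). With the groups ordered by mean, 0 of 27 neighbouring pairs were further apart than the larger of their SDs for Gria1, Gria3, Gria4, Grik2, Grik4 and Grik5, and 1 of 27 was for Gria2. Among the 7 control groups alone, 3 of 6 neighbours were that far apart for Gria2, which ran from 10.97 ± 0.22 (n = 5) in SSSE controls to 11.95 ± 0.22 (n = 6) in pilocarpine laboratory A controls.

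Over all 164 rats, with each laboratory set to a common mean, Gria1 and Gria2 followed each other most of all pairs of subunits (r = 0.542), then Gria2 and Gria4 (r = 0.415). Gria4 ran against Grik4 (r = -0.356), and Gria3 had r from -0.063 to 0.12 with the others. Among all genes tested, those whose levels were most like Gria2 were Adam22 (r = 0.80), Plppr4 (0.792) and Slc22a17 (0.779), and those most like Gria1 were Cplx2 (0.714), Hpca (0.704) and Epha4 (0.694). Gria4 was most like Hapln4 (0.714), Gabra5 (0.672) and Gpd2 (0.661), and Gria3 most like Ptpre (0.592), Rufy3 (0.547) and Top2b (0.53). For the kainate receptor subunits the closest genes were Nrip1, Luc7l2 and Dnajc13 for Grik2 (0.549 to 0.59), C10h16orf90, Rbm42 and Clec16a for Grik4 (0.57 to 0.589), and Gcn1, Nsmf and Spns1 for Grik5 (0.519 to 0.559). These correlations share the rats, their treatments and the scaling of the arrays and are given as a description. They use the brightest probe set of a gene. The other bright probe set followed it with r = 0.541 for Gria3 and 0.555 for Gria4.

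The proteins that travel with these receptors were described from 5 lists. Their counts are to be read beside the shares of all genes that changed, 32.1% at day 1 after pilocarpine, 41.6% after kainate, 12.5% after SSSE and 7.1% at kindling stage 5. After pilocarpine the share was 11.7% at day 3 and 8.93% at day 10. At day 3 it was 7.96% after kainate and 3.14% after SSSE. Of the AMPA receptor auxiliary subunits, which set gating and surface delivery, 6 of 12 were tested. At day 1 1 rose and 0 fell after pilocarpine, 1 rose and 1 fell after kainate, and 1 fell after SSSE; their median changes were -0.24, -0.23 and -0.06, beside medians over all genes of 0.0034, 0.016 and 0.00034. Gsg1l, an auxiliary subunit that slows recovery from desensitization, rose by 0.64 ± 0.12 at day 1 after pilocarpine (SE, limma adjusted p = 7.6e-05), by 0.31 after kainate (adjusted p = 0.030) and by 0.18 at kindling stage 5 (adjusted p = 0.041). Cacng3, also called TARP gamma-3, fell by 0.73 ± 0.17 at day 1 after SSSE (adjusted p = 0.011) and by 0.68 after kainate (adjusted p = 4.7e-05). Later, 1 of the 6 tested rose and 1 fell at day 10 after pilocarpine, and 1 fell at day 3 after kainate.

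Of 17 assembly and scaffold partners 15 were tested. At day 1 1 rose and 5 fell after pilocarpine, 3 rose and 2 fell after kainate and 1 rose after SSSE, with median changes of -0.11, -0.05 and -0.05. These 6, 5 and 1 of 15 lie near or under the shares of all genes. Akap5, which anchors kinases and calcineurin at Gria1, fell by 1.13 ± 0.25 at day 1 after pilocarpine (SE, limma adjusted p = 0.00036) and by 0.48 after kainate (adjusted p = 0.039). Frrs1l, which serves AMPA receptor assembly in the endoplasmic reticulum, rose by 0.58 ± 0.13 at day 1 after SSSE (adjusted p = 0.0074). Dlg4, the scaffold PSD-95, fell by 0.48 at day 1 after pilocarpine (adjusted p = 0.0089). Later, 1 of 15 fell at day 10 after pilocarpine, 1 fell at day 3 after kainate and 1 rose at day 3 after SSSE.

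The pentraxin and olfactomedin group, secreted or membrane proteins that gather AMPA receptors at synapses, had 4 of 9 genes tested. Nptxr, the neuronal pentraxin receptor, rose by 1.28 ± 0.18 at day 1 after pilocarpine (SE, limma adjusted p = 5.7e-07), by 1.11 after kainate (adjusted p = 1.4e-08), by 0.84 after SSSE (adjusted p = 0.013) and by 0.42 at kindling stage 5 (adjusted p = 0.0017). Olfm3 fell by 1.54 ± 0.23 at day 1 after pilocarpine (adjusted p = 1.7e-06), fell by 1.44 after kainate (adjusted p = 1.8e-07), fell by 1.00 after SSSE (adjusted p = 0.019) and fell by 0.73 at kindling stage 5 (adjusted p = 0.0064). At stage 5 Nptx1, which is also one of the mossy cell and CA3 markers above, rose as well. Thus 2 of 4 rose and 1 fell, with a median change of 0.19 beside -0.0045 over all genes. At day 1 1 rose and 2 fell after pilocarpine, 1 rose and 3 fell after kainate, and 1 rose and 1 fell after SSSE, with medians of -0.33, -0.34 and 0.0070. Later, 1 of 4 fell at day 3 after pilocarpine and 1 at day 3 after kainate, and 1 rose at day 10 after pilocarpine.

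Kainate receptor partners had 8 of 9 genes tested. C1ql3, a complement-like protein that is also one of the granule cell markers above and whose family places kainate receptors at mossy fibre synapses, fell by 1.67 ± 0.26 at day 1 after pilocarpine (SE, limma adjusted p = 2.2e-06), by 1.53 after kainate (adjusted p = 1.2e-10) and by 0.79 after SSSE (adjusted p = 0.013). Actn1, an actin cross-linker, fell by 0.46 ± 0.13 at day 3 after pilocarpine (adjusted p = 0.014). The auxiliary subunits Neto1 and Neto2 passed in 0 of the 12 comparisons with control. In this list 1 rose and 1 fell at day 1 after pilocarpine, 1 rose and 2 fell after kainate, and 2 fell after SSSE, with medians of 0.036, -0.078 and -0.032. These 2 and 3 of 8 do not exceed the shares of all genes in the chemoconvulsant models. Later, 2 of 8 fell at day 3 after pilocarpine, Actn1 among them, and 1 at day 3 after kainate. At day 10 after pilocarpine 1 rose.

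Of the editing enzymes, Adar rose by 0.57 ± 0.14 at day 1 after pilocarpine (SE, limma adjusted p = 0.0014) and by 0.38 after kainate (adjusted p = 0.00038). Adarb1, the enzyme that edits the pore site of Gria2, passed in 0 of the 12 comparisons with control. Set against day 1, however, both Adar and Adarb1 were lower at day 10 after kainate (2 of 2 tested), where 33% of all genes differed.

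**Figure D4:**
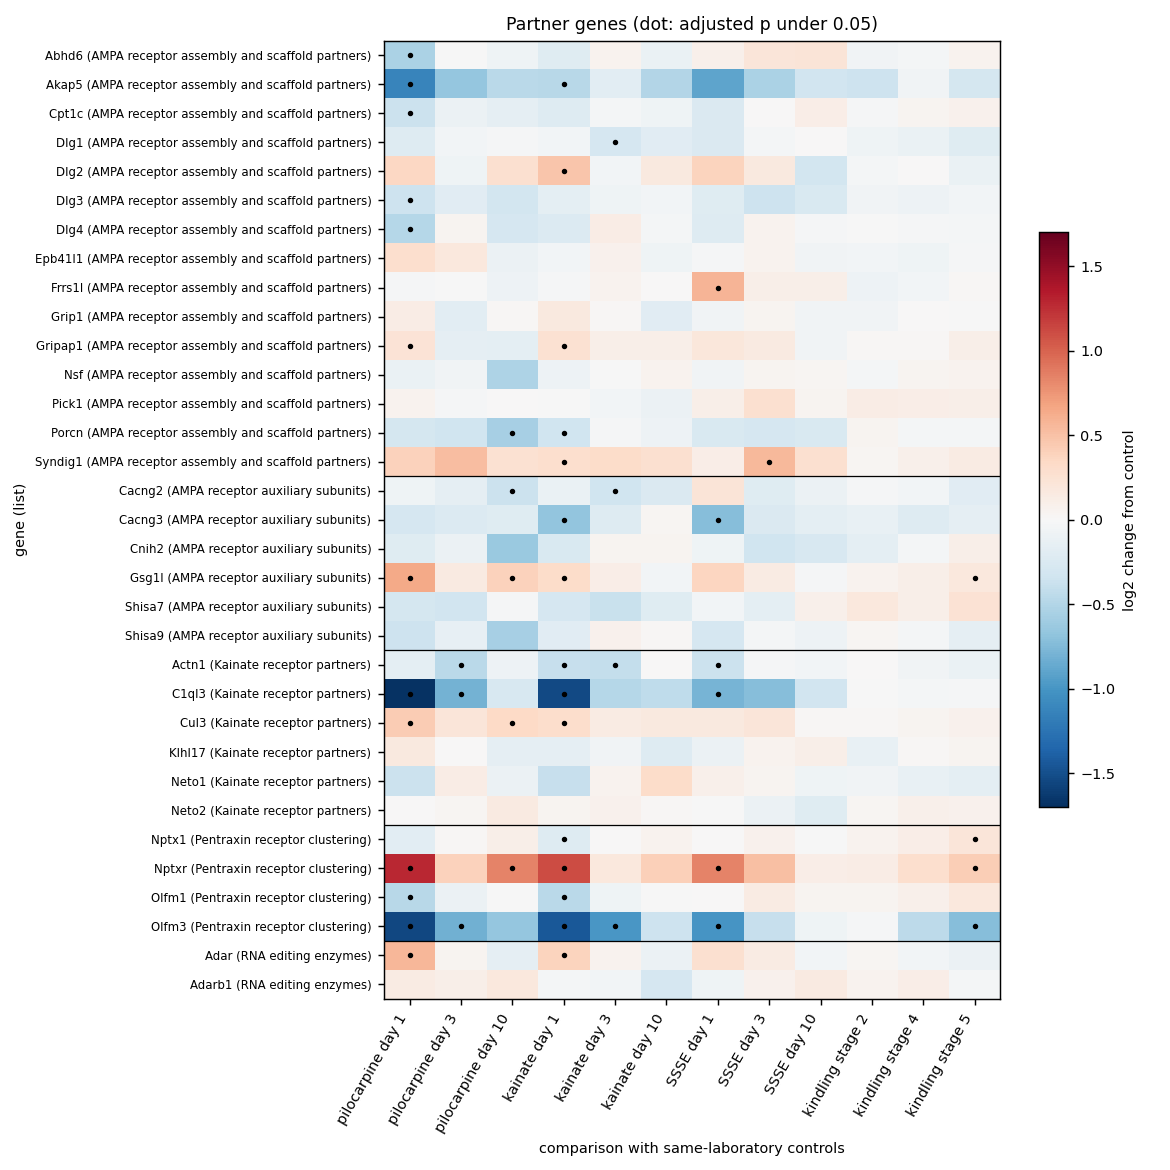
Change from same-laboratory controls on the log2(signal + 16) scale (colour, blue lower and red higher) for the tested genes of the 5 partner lists (rows) in 12 comparisons (columns); dots mark an adjusted p under 0.05. Nptxr is red and Olfm3 and C1ql3 are blue at day 1 after pilocarpine, kainate and SSSE.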

How the data were processed

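RNA of laser-captured granule cells from 164 rats was measured on 172 one-colour arrays. The deposited intensity of a probe set is a linear MAS5 signal, per the submitters' processing notes, and the arrays had trimmed means of 150.04 to 150.06, so they were already on a common scale. The intensities were used as log2(signal + 16). Rats with repeated arrays (8) entered as the mean of both. Among them were control rats 1 to 5 of pilocarpine laboratory A, while no pilocarpine-treated rat had a repeat. Of 31099 probe sets 57 were controls, 20826 had 1 gene symbol, 436 several and 9780 none, by the platform annotation. A probe set was kept where it lay above its array's median in at least 6 rats, and a gene was represented by its brightest, which left 10761 genes. The groups of a model got a mean each in limma 3.58.1 under R 4.3.3, and p-values were adjusted by Benjamini-Hochberg with a threshold of 0.05. The model comparison was fitted on all 28 groups. Tests were checked on simulated data. Nothing in the labels says that rat numbers pair animals, so they were not used as pairs. Gene positions and promoters come from RefSeq (GRCr8), matched by symbol. Genes named are all 9 subunits and, of each partner list, the 2 with the largest change past the threshold. Those partner genes are shown at some of the further comparisons where they passed. Dlg4, Nptx1, Neto1, Neto2 and Adarb1 were added after their values were seen. The members, lists and tests were chosen with earlier results of these data known. Doubted rats had a median correlation more than 0.02 under that of their group. Alternatives were another normalization, pseudocounts of 1 and 64, other probe set and array choices, a rat number block, laboratories fitted alone and rats left out.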

Additional observations from a re-analysis of the deposited data

Results flagged for a closer look

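A sample was set apart where the gap between a group's highest or lowest rat and the next exceeded Dixon's 95% limit for the group's range. Of 252 combinations of subunit and group, 12 met it, in 6 of the 9 genes, and by chance about 5% of groups do. For Gria1 these were SSSE day 1 rat 1 at 9.28 (next 9.97), SSSE day 3 rat 4 at 8.86 (next 9.69), which is also one of the 6 doubted rats, and kindling laboratory A control rat 3 at 9.96 (next 9.50). For Gria2 they were kainate laboratory B day 3 rat 1 at 11.40 (next 11.58), pilocarpine laboratory A control rat 6 at 12.38 (next 11.94) and pilocarpine laboratory B control rat 3 at 12.06 (next 11.58). Gria3 had pilocarpine laboratory B control rat 6 at 10.05 (next 9.65), and Grik2 had pilocarpine laboratory A control rat 1 at 7.23 (next 7.57). Grik1, at a dim level, had kindling laboratory B stage 5 rat 3 at 5.36 (next 4.82). Grik5 had kindling laboratory A control rat 1 at 6.74 (next 7.40), kindling laboratory B stage 5 rat 2 at 8.39 (next 7.97) and pilocarpine laboratory A day 10 rat 2 at 6.12 (next 6.86), the last also a doubted rat. Both Grik5 rats of kindling move the stage 5 difference upward. Both Gria2 control rats of pilocarpine enlarge the Gria2 fall at day 1, while the Grik2 control rat makes the Grik2 fall there smaller. Values are log2(signal + 16).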

How the results depend on the processing

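Of 1975 single-gene values under the alternatives, 66 had the opposite sign to the main value, in 36 results; 0 of these passed the threshold in the main analysis and 0 in the alternative. Gria4 at kindling stage 5, for example, was -0.10 and 0.31 by its other probe set, and Gria4 at day 10 after kainate was 0.05 and -0.27 in laboratory A alone. Of the counts of subunits under all settings, 273 stayed within 1.5 times the main count and 19 did not, and of the single-gene values 1934 kept their side of the threshold, 26 gained a call and 15 lost one. No doubted rat was a pilocarpine control or a pilocarpine day 3 rat. The count at day 3 after pilocarpine, 0 in the main analysis, was 1 with first arrays only and 1 with the rat number as a replicate block. That count was also 1 when the doubted rats were left out, and 2 in a joint fit of the 28 groups. At day 10 after pilocarpine it was 1 under quantile normalization and 2 with all groups together, and at day 10 after kainate 1 without the doubted rats, against 0 each. Day 10 against day 1 after pilocarpine gave 1, but 2 with the mean of all probe sets, 2 under the replicate block, 2 when the doubted rats were left out and 5 in the joint fit. Pilocarpine against kainate gave 0, but 1 (Gria3) under quantile normalization, a pseudocount of 64, repeat arrays only, the replicate block, the trend and robust fit, and without the doubted rats. Leaving out 1 SSSE rat at a time gave 1 to 2 at day 1 (2 without day 1 rat 6) and 0 to 1 at day 3 (1 without day 3 rat 2). The cause was not tested. Rat numbers are not stated to pair animals; for 50 of 164 rats, the closest rat among the laboratory's other groups (by deviation from group means) had the same number, beside 27.2 by chance, and the block moved the counts given above. Most lost calls came from fitting 1 laboratory alone, with fewer rats. Grik1 and Grik3 lie too near background to be judged.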
